A study of Mus musculus with 6 samples.

Results

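The genes described here are 46 named mouse genes, which build and control the DNA replication machinery in S phase and were chosen by name and function, with earlier results of these data known. Of these, 37 were listed by symbol among the 10995 genes of the count table. The other 9 (Orc1, Mcm10, Cdc45, Gins1, Gins2, Pole2, Rfc4, Fen1 and Ccne2) were not among the listed genes and were not analysed here. RNA had been sequenced from mammary tumor cells of FVB/NJ mice that carry MMTV-PyVT, a transgene in which a mouse mammary tumor virus promoter drives the polyoma virus middle T oncogene in mammary epithelium. The tumors labelled knockout came from mice of genotype Nr4a1-/-, a targeted genotype for the orphan nuclear receptor Nr4a1, and those labelled wild type came from age-matched mice with the same transgene. There were 3 libraries in each group, and the labels state neither the age of the mice nor which part of Nr4a1 is disrupted. Whether each library had its own animal is not stated either, so p-values reflect the variation among 3 libraries, and that variation may be technical.

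Replication starts at origins that are bound by the origin recognition complex (ORC). In G1, ORC, Cdc6 and Cdt1 load the ring-shaped Mcm2 to Mcm7 helicase, and at the start of S phase the ring is activated by Cdc45 and the GINS complex. Primase and DNA polymerase alpha lay down primers, polymerases delta and epsilon extend them on the sliding clamp Pcna, and the clamp is opened by replication factor C (RFC). Many of these genes are transcribed at the transition into S phase by E2F factors, so their transcripts are commonly read as a sign of how many cells in a tissue are cycling.

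E2F factors bind the letters TTTCCCGC, TTTCGCGC, TTTGCCGC and TTTGGCGC, and these were searched on both strands of RefSeq promoter windows of GRCm38.p6, which reach from 250 bases before each annotated start to 50 bases after it. A window was found for 33 of the 37 listed genes, and a gene with several windows was counted once if any of them held a match. A match was present for 13 of the 33 (39.4%), against 2.6% of all 27025 genes with a window and 4.89% of the 8506 genes of the count table with one. The shorter letters CCAAT, on either strand, were present for 21 of the 33 (63.6%), against 41.1% and 42.8%. The 250 bases before the start are shown for Mcm5 and Mcm6, helicase genes that were lowest in wild type replicate 1, for Mcm7, which was highest there, and for Tk1, which had the lowest fold change of the 37, each 5′ to 3′ on the gene's own strand with E2F letters in capitals. They lie at chr8:75109259-75109508 (plus strand, Mcm5), chr1:128359706-128359955 (minus strand, Mcm6), chr5:138171884-138172133 (minus strand, Mcm7) and chr11:117826015-117826264 (minus strand, Tk1).
Mcm5: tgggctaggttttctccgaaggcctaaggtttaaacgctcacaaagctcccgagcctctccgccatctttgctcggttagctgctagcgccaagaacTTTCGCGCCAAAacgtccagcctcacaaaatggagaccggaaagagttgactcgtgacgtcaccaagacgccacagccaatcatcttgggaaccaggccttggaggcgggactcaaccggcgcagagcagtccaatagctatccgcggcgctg
Mcm6: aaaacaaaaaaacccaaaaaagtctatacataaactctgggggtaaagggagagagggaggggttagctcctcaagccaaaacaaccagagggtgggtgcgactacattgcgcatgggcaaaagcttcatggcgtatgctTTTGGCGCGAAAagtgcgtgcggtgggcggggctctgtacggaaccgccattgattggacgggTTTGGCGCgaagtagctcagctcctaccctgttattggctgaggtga
Mcm7: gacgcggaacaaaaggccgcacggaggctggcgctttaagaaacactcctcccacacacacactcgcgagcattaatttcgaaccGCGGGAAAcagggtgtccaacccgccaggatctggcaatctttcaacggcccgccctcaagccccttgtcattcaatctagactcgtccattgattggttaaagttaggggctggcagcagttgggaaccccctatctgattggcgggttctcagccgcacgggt
Tk1: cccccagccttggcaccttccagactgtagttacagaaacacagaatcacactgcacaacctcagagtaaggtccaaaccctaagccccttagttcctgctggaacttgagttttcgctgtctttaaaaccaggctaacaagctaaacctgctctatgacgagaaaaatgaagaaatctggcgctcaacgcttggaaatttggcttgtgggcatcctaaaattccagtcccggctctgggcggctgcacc
The Mcm5 stretch held 2 matches that overlap on opposite strands, at -153 and -149 from the start. Mcm6 held 3, at -110, -106 and -47, the first pair again overlapping. Mcm7 has 2 windows, and the one shown was picked because it held no fewer matches than the other. It held 1 match before its own start, at -165, and 1 more outside the bases shown. Those bases lie inside the annotated span of Mcm7 (138164583 to 138172422), which begins farther upstream on the minus strand. No match was found in the Tk1 window, which says only that these letters are not in it.

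Total counts ranged from 19569173 to 24188875 in the libraries labelled knockout and from 21221467 to 21637113 in those labelled wild type, and levels are given as CPM, the count relative to library size after TMM scaling (trimmed mean of M values). All 8 mammary epithelial markers examined were listed and strongly expressed. Of other cell types, 8 of 8 macrophage, 5 of 6 fibroblast, 6 of 7 pericyte and smooth muscle and 1 of 4 adipocyte markers were listed. By contrast, 0 of 4 endothelial, 0 of 5 T cell and 0 of 3 B cell markers were listed. The first principal component of all genes carried 60.1% of the variance and set wild type replicate 1, at -51.3, apart from the other libraries, at -2.22 to 28.8. The results that it moved most are given with and without that library. Nr4a1 itself had 25.1, 35.5 and 37.6 CPM in the libraries labelled knockout (replicates 1, 2 and 3, the order used throughout), against 34.5, 18.6 and 16.8 CPM in those labelled wild type. That is a log2 fold change of 0.49 (SE 0.32, edgeR adjusted p = 0.594). Leaving out wild type replicate 1 gave 0.88, with unadjusted p = 0.00532 and adjusted p = 0.65 in edgeR, and all 3 knockout values then lay above both wild type values. Exact permutation of the labels, two-sided, returned p = 0.2, and 3 libraries against 3 cannot go below 0.1. The transcript was thus not lower with the knockout label. Whole-gene counts do not show whether reads cover the disrupted part, so every direction is between libraries as labelled.

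No replication gene passed the test between tumors labelled knockout and wild type, and the median difference was small. Of the 37 listed genes, 23 lay above a log2 fold change of 0 (62.2%, against 49.4% of all genes) and 14 below, between -0.78 for Tk1 and 0.63 for Rrm2. Their median was 0.064, against -0.0024 over all genes. Their mean level was 4.43, 4.34 and 4.40 log2 CPM in the libraries labelled knockout, against 4.25, 4.27 and 4.45 log2 CPM in those labelled wild type. Wild type replicate 3 was the highest of the 6 and replicates 1 and 2 the lowest, so the groups overlap. The edgeR quasi-likelihood test with Benjamini-Hochberg adjustment over all genes called 0 of the 37 at 0.05, as it called 0% of all genes, and the smallest adjusted p among the 37 was 0.574. At an unadjusted p under 0.05 there were 2 higher, Rpa1 and Slbp, and 1 lower, Tk1, which is 8.11% of the 37 against 7.88% of all genes. By direction, all genes gave 3.70% higher and 4.17% lower. In 7 of the 37 (18.9%, against 17.4% of all genes) no library of one label fell among those of the other, with 6 higher (all genes 8.39%) and 1 lower (all genes 9.05%). DESeq2, which called 0.938% of the genes for which it gave an adjusted p, also called 0 of the 37, with a smallest adjusted p of 0.311 for Tk1.

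Single libraries moved these counts. The number with an unadjusted p under 0.05 was 0 without knockout replicate 1 (all genes 4.67%) or 3 (all genes 7.81%). It was 1 without knockout replicate 2 (Tyms, all genes 3.53%) or wild type replicate 1 (Tk1, all genes 6.85%). Dropping wild type replicate 3 gave 6 (all genes 6.95%), namely Mcm4, Mcm6, Prim2, Rpa1, Rrm2 and Uhrf1, all higher with the knockout label. Leaving out wild type replicate 3 put the median log2 fold change at 0.15, and leaving out knockout replicate 1 put it at 0.096. It was 0.041 when wild type replicate 1 was dropped and 0.029 when knockout replicate 3 was. Of the 37, 16 had no overlap once wild type replicate 3 was dropped, when 27.9% of all genes had none. Dropping wild type replicate 2 gave 13 of 37 (all genes 33.1%), and dropping knockout replicate 3 gave 12 of 37 (all genes 34.7%).

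**Figure D1:**
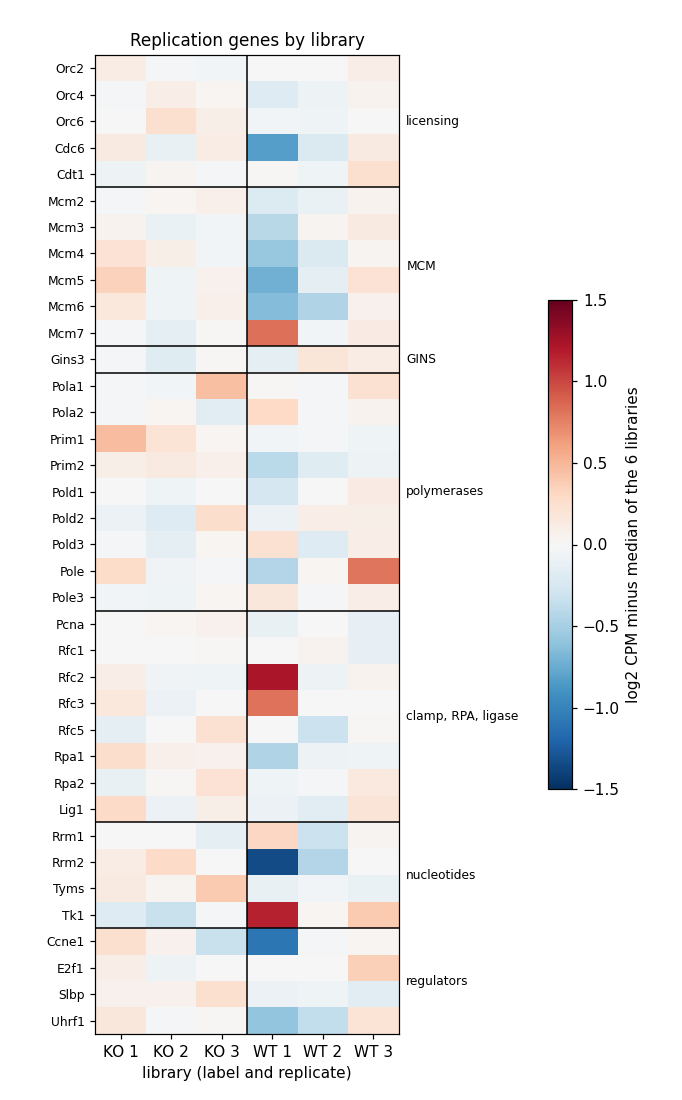
Level of the 37 listed replication genes in each library, as log2 CPM minus the gene's median over the 6 libraries (colour), with libraries labelled knockout (KO) left of those labelled wild type (WT) and genes grouped by role. Wild type replicate 1 is blue for Mcm3 to Mcm6, Cdc6, Rrm2 and Ccne1 and red for Mcm7, Rfc2, Rfc3 and Tk1.

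**Figure D2:**
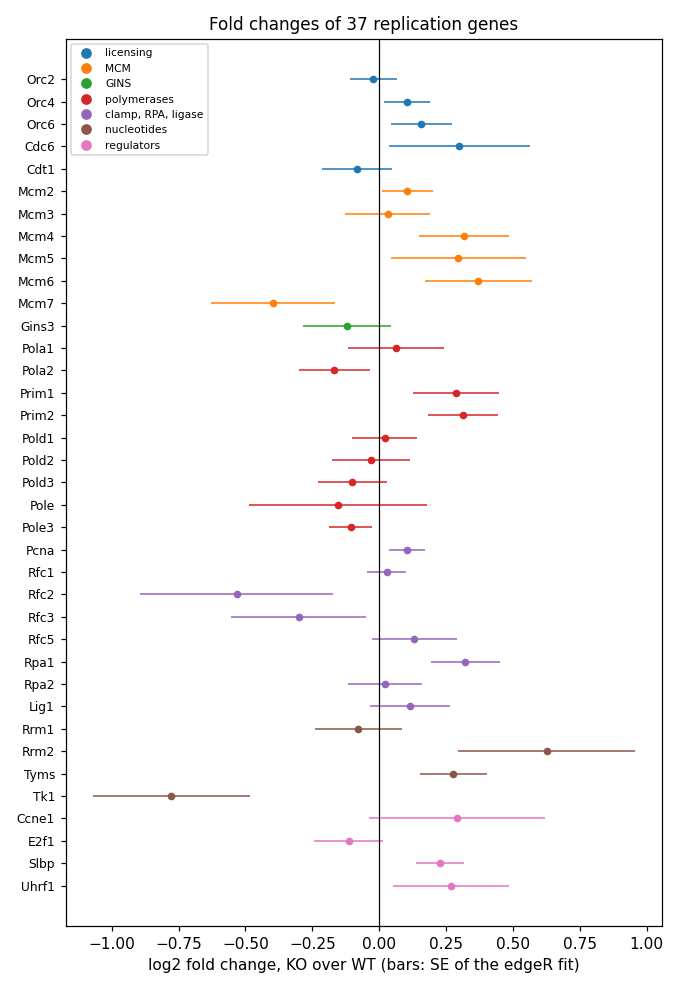
Log2 fold change (knockout label over wild type label) of each listed replication gene, with bars for the standard error of the edgeR fit and colours for the role. Values run from -0.78 for Tk1 to 0.63 for Rrm2, and 0 of the 37 passed at an adjusted p of 0.05.

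Among the genes that license origins, 5 of 6 were listed and 3 of the 5 lay above 0, with a median log2 fold change of 0.10. Orc4, a subunit of ORC and the gene with the highest CPM of these, had 55.2, 60.3 and 57.5 CPM in the libraries labelled knockout, against 49.1, 53.5 and 58.4 CPM in those labelled wild type. The groups overlap, with a difference of 0.10 on the log2 scale (SE 0.09, edgeR adjusted p = 0.645). Orc6, the smallest ORC subunit, had 11.9, 13.9 and 12.6 CPM with the knockout label, against 11.4, 11.3 and 11.7 CPM with the wild type label. All 3 knockout values were above all wild type values, but only by 0.16 on the log2 scale (SE 0.11, edgeR adjusted p = 0.611). Cdc6, the ATPase that brings the helicase to ORC, had 6.90, 5.83 and 6.76 CPM with the knockout label, against 3.54, 5.41 and 6.87 CPM with the wild type label. The groups overlap, and wild type replicate 1 was the lowest. The log2 fold change of 0.30 (SE 0.26, edgeR adjusted p = 0.659) was 0.081 without wild type replicate 1 and 0.54 without wild type replicate 3. Cdt1, the partner of Cdc6 in loading, was at -0.083 (SE 0.13) on the log2 scale and Orc2, another ORC subunit, at -0.022 (SE 0.09).

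The 6 helicase subunits, whose proteins form a ring with 1 copy of each, did not move as a unit. Mcm2 had 31.4, 32.7 and 33.9 CPM in the libraries labelled knockout, against 27.8, 30.0 and 33.4 CPM in those labelled wild type. Mcm3 had 25.7, 23.1 and 24.1 CPM with the knockout label, against 18.6, 25.6 and 27.3 CPM with the wild type label. In both genes wild type replicate 1 was the lowest library and wild type replicate 3 stood within or above the knockout range. Mcm4 had 33.3, 30.3 and 27.8 CPM with the knockout label, against 19.3, 24.7 and 29.4 CPM with the wild type label. Mcm5 had 24.4, 18.2 and 20.0 CPM with the knockout label, against 11.6, 17.2 and 22.2 CPM with the wild type label. Mcm6 had 19.7, 17.0 and 18.7 CPM with the knockout label, against 11.3, 13.0 and 18.5 CPM with the wild type label. Mcm4, Mcm5 and Mcm6 share the pattern of Mcm2 and Mcm3, with wild type replicate 1 the lowest of the 6 libraries and wild type replicate 3 inside the knockout range. On the log2 scale Mcm4 was higher by 0.32 (SE 0.17, edgeR adjusted p = 0.574), Mcm5 by 0.30 (SE 0.25, adjusted p = 0.653) and Mcm6 by 0.37 (SE 0.20, adjusted p = 0.574). Leaving out wild type replicate 3 gave 0.47 for Mcm4, 0.54 for Mcm5 and 0.61 for Mcm6. Leaving out wild type replicate 1 gave 0.17, 0.084 and 0.23, and that of Mcm3 was -0.12, against 0.03 with all libraries.

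Mcm7 ran the other way, with 65.0, 59.6 and 67.0 CPM in the libraries labelled knockout, against 117, 64.1 and 72.0 CPM in those labelled wild type. Wild type replicate 1 was the highest library, and the other 5 lay within a narrow band. The log2 fold change of -0.40 (SE 0.23, edgeR adjusted p = 0.581) was -0.09 without that library. Levels were also taken per kilobase of annotated exon, merged over all transcripts of a gene. On that scale Mcm7 was 2.41, 2.86 and 3.02 times the median of Mcm2 to Mcm6 in the libraries labelled knockout. It was 6.60, 3.36 and 2.92 times that median in those labelled wild type. The merged length can far exceed that of any single transcript, so such ratios compare libraries better than genes. Reads of Mcm7 are uncertain, since 47.6% of the 31-base words of its longest transcript are found in other genes too, mainly the pseudogene Gm5487, and 12.6% of its exonic bases overlap other genes.

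**Figure D3:**
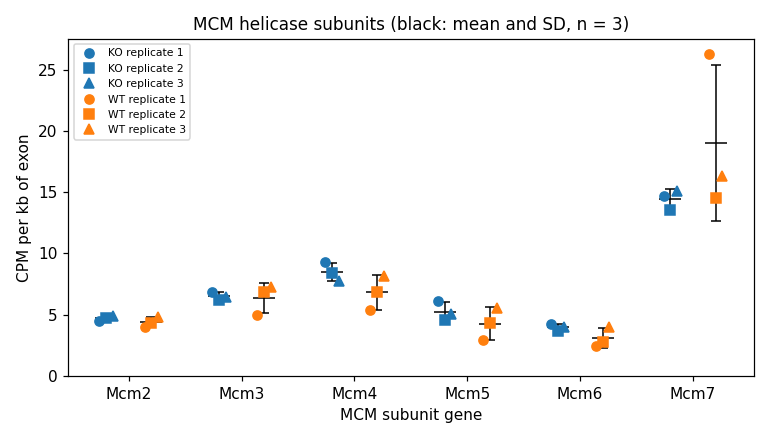
Level of the 6 helicase subunit genes in CPM per kilobase of exon, each library a point (libraries labelled knockout on the left of each pair in blue, those labelled wild type on the right in orange), with the mean and SD of 3 libraries in black. Wild type replicate 1 (orange circle) is the lowest point for Mcm2 to Mcm6 and the highest for Mcm7, at 26.3 against 13.5 to 16.3 in the other 5 libraries.

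Of the helicase activation genes, 1 of 5 was listed. Gins3, a subunit of the GINS complex, had 5.58, 4.99 and 5.70 CPM with the knockout label, against 5.14, 6.42 and 6.12 CPM with the wild type label, and the groups overlap (log2 fold change -0.12, SE 0.16, edgeR adjusted p = 0.77).

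Polymerase and primase genes split between the directions: 4 of 9 listed genes lay above 0, and the median was -0.032. Both primase subunits stood higher with the knockout label in all libraries. Prim2, the large subunit, had 11.6, 12.0 and 11.6 CPM in the libraries labelled knockout, against 8.29, 9.63 and 10.4 CPM in those labelled wild type, a log2 fold change of 0.31 (SE 0.13, unadjusted p = 0.0542 and adjusted p = 0.574 in edgeR). Prim1, the catalytic subunit, had 9.32, 7.84 and 6.91 CPM with the knockout label, against 6.59, 6.65 and 6.49 CPM with the wild type label (log2 fold change 0.29, SE 0.16, edgeR adjusted p = 0.577). For each gene the lowest knockout library exceeded the highest wild type library, by a small margin. Their partners in the primosome did not follow, at 0.064 (SE 0.18) for the catalytic polymerase alpha subunit Pola1 and -0.17 (SE 0.13) for Pola2.

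Pole3, a histone-fold subunit of polymerase epsilon and the gene with the highest CPM of these, had 34.6, 34.0 and 36.2 CPM with the knockout label, against 40.0, 34.9 and 38.0 CPM with the wild type label (log2 fold change -0.11, SE 0.08, edgeR adjusted p = 0.623). Pole, its catalytic subunit, varied most within a group here, with 8.21, 6.50 and 6.61 CPM in the libraries labelled knockout, against 4.99, 6.93 and 11.8 CPM in those labelled wild type. The lowest and the highest library both carried the wild type label, and the log2 fold change of -0.15 (SE 0.33) was 0.26 without wild type replicate 3. Of the polymerase delta subunits, Pold1 was at 0.02 (SE 0.12), Pold2 at -0.032 (SE 0.15) and Pold3 at -0.10 (SE 0.13) on the log2 scale.

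Among clamp, clamp loader, RPA and ligase genes, 8 of 10 were listed, 6 of the 8 lay above 0 and the median log2 fold change was 0.065. Rpa1 (chromosome 11, 75298166 to 75348324, minus strand, GRCm38), the large subunit of the RPA complex that coats single-stranded DNA, had 64.7, 56.9 and 56.2 CPM in the libraries labelled knockout, against 39.4, 51.2 and 51.6 CPM in those labelled wild type. The groups do not overlap, with wild type replicate 1 the farthest away. The log2 fold change was 0.32 (SE 0.13), with unadjusted p = 0.0453 and adjusted p = 0.574 in edgeR, and 0.205 without wild type replicate 1. Its partner Rpa2 had a log2 fold change of 0.023 (SE 0.14).

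Pcna, the sliding clamp, had the highest level of all per kilobase of exon, at 31.1 CPM per kilobase on average with the knockout label and 28.9 with the wild type label. It had 72.6, 74.6 and 76.5 CPM with the knockout label, against 67.7, 73.6 and 67.0 CPM with the wild type label (log2 fold change 0.10, SE 0.07, edgeR adjusted p = 0.595). The libraries differed by at most 1.14 times, though 38.0% of its words are shared with other genes, mainly the pseudogene Pcna-ps2. Ligase I, which seals the lagging strand and is encoded by Lig1, had a log2 fold change of 0.11 (SE 0.15).

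The clamp loader subunits did not vary together. Rfc1, the large subunit, had 52.8, 52.8 and 53.5 CPM with the knockout label, against 53.0, 54.7 and 48.5 CPM with the wild type label, among the most even of the 37. Rfc2 (chromosome 5, 134581366 to 134601805, plus strand) had 30.5, 27.3 and 27.2 CPM in the libraries labelled knockout, against 66.6, 27.0 and 29.5 CPM in those labelled wild type. Rfc3 (chromosome 5, 151642756 to 151651242, minus strand) had 14.5, 12.2 and 12.9 CPM with the knockout label, against 22.9, 13.1 and 12.9 CPM with the wild type label. In Rfc2 and Rfc3 wild type replicate 1 alone was high and the other 5 libraries lay together. Their log2 fold changes of -0.53 (SE 0.36, edgeR adjusted p = 0.601) and -0.30 (SE 0.25, edgeR adjusted p = 0.646) were 0.0050 and 0.025 without it. Per kilobase of exon, Rfc2 stood at 0.552, 0.494 and 0.484 of Rfc1 with the knockout label, against 1.20, 0.471 and 0.582 with the wild type label. Rfc5 had a log2 fold change of 0.13 (SE 0.16).

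The 4 genes that supply deoxynucleotides held both ends of the range. Tk1 (chromosome 11, 117815526 to 117826092, minus strand), thymidine kinase of the salvage pathway, had 31.8, 28.8 and 35.7 CPM in the libraries labelled knockout, against 80.5, 36.9 and 47.7 CPM in those labelled wild type. It was the only one of the 37 that lay lower with the knockout label in every library. The log2 fold change was -0.78 (SE 0.29), with unadjusted p = 0.0386 and adjusted p = 0.574 in edgeR. Without wild type replicate 1 it was -0.40, with unadjusted p = 0.0397 and adjusted p = 0.726 in edgeR, so that library carried much of the size but not the direction. Genes around Tk1 on the chromosome shared that direction, as given below.

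Rrm2 (chromosome 12, 24708241 to 24714146, plus strand), the regulated small subunit of ribonucleotide reductase, had 26.4, 29.7 and 24.3 CPM with the knockout label, against 9.60, 18.0 and 24.5 CPM with the wild type label. The 6 libraries differed by 3.10 times, more than for any other of the 37, and wild type replicate 3 lay within the knockout range. The log2 fold change of 0.63 (SE 0.33, edgeR adjusted p = 0.574) was 0.335 without wild type replicate 1 and 0.96 without wild type replicate 3. Rrm1, its large partner, had 84.6, 84.3 and 76.3 CPM with the knockout label, against 104, 67.5 and 87.0 CPM with the wild type label. Its log2 fold change was -0.078 (SE 0.16), and 0.082 without wild type replicate 1. Per kilobase of exon, Rrm2 stood at 1.24, 1.40 and 1.26 of Rrm1 with the knockout label, against 0.365, 1.06 and 1.12 with the wild type label, so the groups do not overlap in this ratio. Tyms, thymidylate synthase of the de novo pathway, had 16.2, 15.1 and 19.3 CPM with the knockout label, against 13.7, 14.4 and 13.7 CPM with the wild type label. All knockout libraries were above all wild type libraries (log2 fold change 0.28, SE 0.13, unadjusted p = 0.0684 and adjusted p = 0.574 in edgeR). Tk1 and Tyms, which make the same nucleotide by salvage and by synthesis, thus lay on opposite sides of 0. The ratio of Tk1 to Tyms per kilobase of exon was 2.30, 2.24 and 2.16 with the knockout label, against 6.90, 3.01 and 4.06 with the wild type label. These ratios were chosen after the values were seen and were not tested.

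**Figure D4:**
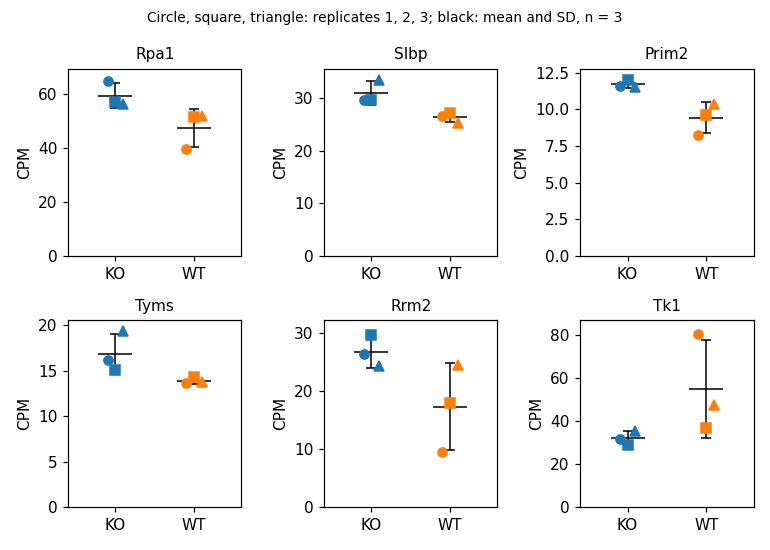
Levels in CPM of Rpa1, Slbp, Prim2, Tyms, Rrm2 and Tk1 in each library (circle, square and triangle for replicates 1, 2 and 3), with libraries labelled knockout (KO, blue) left of those labelled wild type (WT, orange) and the mean and SD of 3 libraries in black. The groups do not overlap in Rpa1, Slbp, Prim2, Tyms and Tk1, and overlap in Rrm2, where wild type replicate 3 reaches 24.5 CPM.

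Of 5 regulators, 4 were listed, 3 of the 4 lay above 0 and the median log2 fold change was 0.25. Slbp (chromosome 5, 33634952 to 33652574, minus strand), which binds the stem-loop of histone mRNAs and is needed for histone supply in S phase, had 29.6, 29.6 and 33.5 CPM in the libraries labelled knockout, against 26.6, 27.2 and 25.3 CPM in those labelled wild type. The groups do not overlap, and the wild type libraries lay close together. The log2 fold change was 0.23 (SE 0.09), with unadjusted p = 0.0419 and adjusted p = 0.574 in edgeR. With any 1 library left out it lay between 0.17 and 0.26. Some of its reads are uncertain, as 13.3% of its words are shared, mainly with Gm10459.

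Ccne1, cyclin E1, which activates Cdk2 at the entry into S phase, had 12.9, 11.4 and 8.63 CPM with the knockout label, against 5.14, 10.7 and 11.2 CPM with the wild type label. Uhrf1, which keeps DNA methylation through replication, had 24.3, 21.3 and 21.9 CPM with the knockout label, against 14.3, 16.8 and 24.9 CPM with the wild type label. In both genes wild type replicate 1 was the lowest library, and the groups overlap. Ccne1 was at 0.29 on the log2 scale (SE 0.33), and leaving out 1 library put it between 0.013 (without wild type replicate 1) and 0.48 (without wild type replicate 3). Uhrf1 was at 0.27 (SE 0.22), with 0.11 and 0.54 when the same libraries were left out. E2f1, the transcription factor itself, had 27.4, 24.2 and 25.6 CPM with the knockout label, against 25.5, 25.4 and 32.7 CPM with the wild type label (log2 fold change -0.11, SE 0.13).

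The larger spread among libraries labelled wild type did not hold for every pair of them. Pairs of libraries were compared over all genes by the chi-square of their counts per degree of freedom, which is larger when they differ more. It was 118 and 113 for wild type replicate 1 against replicates 2 and 3, but 27.1 between replicates 2 and 3. Between libraries labelled knockout it ran from 34.1 to 86.6. The standard deviation of log2 CPM was larger among the libraries labelled wild type than among those labelled knockout for 28 of the 37 (75.7%), against 63.4% of all genes. Wild type replicate 1 was the lowest of the 6 libraries for 15 of the 37 (40.5%, against 31.6% of all genes) and the highest for 8 (21.6%, against 32.2%). Among the libraries labelled wild type, replicate 1 was the lowest and replicate 3 the highest for 16 of the 37 (43.2%, against 20.4% of all genes). These include Mcm2 to Mcm6, Cdc6, Uhrf1 and Rrm2.

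Mcm7, Rfc2, Rfc3 and Tk1 stood farthest above the other libraries in wild type replicate 1, and many genes close to them were also high there. For each library and gene, the difference between its log2 CPM and the median of the other 5 libraries was taken, and the median of these differences was found over the neighbours, the listed genes that start within 2 Mb of each replication gene. In wild type replicate 1 it was 1.06 for the 52 neighbours of Mcm7, 1.24 for the 7 of Rfc3 and 1.14 for the 60 of Tk1, where the genes themselves stood at 0.84, 0.82 and 1.17. For the other 34 replication genes it lay between -0.22 and 0.27 in that library. These include Pola2, Pold3, Pole3 and Rrm1, which were also highest in that library, with neighbour medians of 0.098, -0.12, 0.051 and -0.065. Over all 37 the neighbour medians lay between -0.27 and 0.19 in the other 5 libraries. Rfc2 stood at 1.28 while its 37 neighbours had a median of 0.27, but of the 9 genes that start within 400 kb of it, 7 exceeded 0.5, among them Eif4h at 1.26 and Gtf2i at 1.14.

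Across the genome, 377 windows of 5 Mb held at least 10 listed genes, and their median difference exceeded 0.5 in 6 windows in wild type replicate 1 and in 0 in each other library. In wild type replicate 1 it was also below -0.5 in 1 window, of 16 genes on chromosome 9 (-0.55), which holds none of the 37. The 6 windows lie in the distal parts of chromosomes 11 and 5. On chromosome 11 they held 148 genes between 110269369 and 121716306 (GRCm38), with a median of 1.15, and wild type replicate 1 was the highest library for 135 of them (91.2%). On chromosome 5 they held 146 genes between 135009152 and 149762599, with a median of 1.03, and wild type replicate 1 was the highest for 120 (82.2%). In the other 5 libraries the median on chromosome 5 lay between -0.12 and 0.051. On chromosome 11 it was -0.19, -0.14 and -0.13 with the knockout label, against 0.066 and 0.15 in wild type replicates 2 and 3. For the 60 neighbours of Tk1 within 2 Mb it was -0.27, -0.16 and -0.17 with the knockout label, against 0.14 and 0.12 in those replicates. The lower level with the knockout label was thus shared by genes around Tk1. Around Mcm7 (chromosome 5, 138164583 to 138172422, minus strand), the adjacent gene Ap4m1 had 18.7, 18.4 and 19.0 CPM with the knockout label, against 55.9, 19.0 and 22.9 CPM with the wild type label. On its other side, Cops6 had 96.8, 97.3 and 99.7 CPM with the knockout label, against 195, 93.9 and 96.3 CPM with the wild type label. Both share exonic bases with Mcm7, and both had the same single high library. DNA of these tumors was not analysed here, and the part that position plays in the levels of Mcm7, Rfc2, Rfc3 and Tk1 was not tested.

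Without those 4 genes, 23 of the 33 left lay above 0 (all genes 49.4%) and 10 below, with a median log2 fold change of 0.10. Wild type replicate 1 was then the lowest library for 15 of the 33 (all genes 31.6%) and the highest for 4 (all genes 32.2%). The 4 were picked after their values were seen, and all 4 lay below 0 and were highest in that library. Leaving them out had to lower both of those counts and could not lower the median, so these shifts are no separate result. The groups did not overlap for 6 of the 33, against 17.4% of all genes, and 2 had an unadjusted p under 0.05, against 7.88% of all genes.

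**Figure D5:**
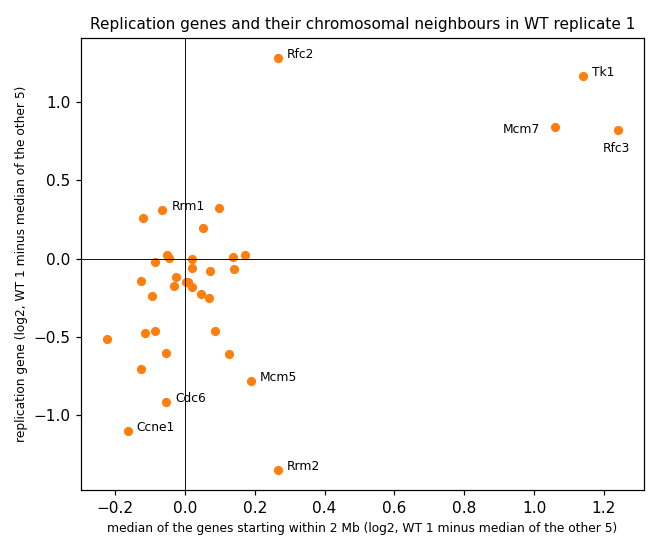
Each point is a listed replication gene, placed by the median difference of its neighbours within 2 Mb (horizontal) and its own difference (vertical), both as log2 CPM in wild type replicate 1 minus the median of the other 5 libraries. Mcm7, Rfc3 and Tk1 stand with neighbours at 1.06 to 1.24, while Rrm2 and Ccne1 lie lowest at -1.35 and -1.10 with neighbours at 0.27 and -0.16.

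Other genes of the same pathway also gave no call. Of 54 further replication genes, 45 were listed. Of these, 32 lay above 0 (71.1%, against 62.2% of the 37 and 49.4% of all genes) and 13 below. Their median log2 fold change was 0.076. The edgeR test called 0 of the 45, and at an unadjusted p under 0.05 it gave 0 higher and 1 lower (2.22%, against 7.88% of all genes). There was no overlap for 4 higher and 2 lower (13.3%, against 17.4% of all genes). The wild type libraries had the larger spread for 21 of the 45 (46.7%), against 75.7% of the 37 and 63.4% of all genes. Wild type replicate 3 was the highest library for 4.44% of the 45 and for 16.2% of the 37. Dut, the dUTPase that keeps uracil out of DNA, had the smallest unadjusted p among those higher, with 18.7, 19.1 and 16.8 CPM in the libraries labelled knockout, against 9.74, 16.6 and 13.4 CPM in those labelled wild type (log2 fold change 0.46, SE 0.20, edgeR adjusted p = 0.574). Pold4, the smallest polymerase delta subunit, followed with 20.3, 24.8 and 23.0 CPM with the knockout label, against 18.5, 21.1 and 17.8 CPM with the wild type label. Mcmbp, which binds the helicase ring, had 58.8, 58.2 and 62.4 CPM with the knockout label, against 70.7, 66.0 and 66.7 CPM with the wild type label (log2 fold change -0.18, SE 0.07, unadjusted p = 0.033 and adjusted p = 0.574 in edgeR). Chtf8, part of an alternative clamp loader, had 135, 122 and 135 CPM with the knockout label, against 159, 145 and 142 CPM with the wild type label.

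A set of 12 G2 and mitosis genes, including Mki67 and Top2a, had all 12 above 0 (all genes 49.4%) with a median log2 fold change of 0.32. In edgeR, 0 of the 12 had an unadjusted p under 0.05 (all genes 7.88%). Wild type replicate 1 was the lowest library for all 12 (all genes 31.6%), as for Mcm2 to Mcm6. Their median without that library is not given here. Their summed level ranged from 196 to 256 CPM in the libraries labelled knockout and from 131 to 248 CPM in those labelled wild type.

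Markers of cell types shared a direction within each list. The edgeR test called 0 in each, as it called 0% of all genes. In edgeR, 5 of 8 epithelial markers had an unadjusted p under 0.05, all lower with the knockout label. So did 4 of 8 macrophage, 1 of 5 fibroblast and 5 of 6 pericyte and smooth muscle markers, all higher with that label. The share was 7.88% of all genes and 8.11% of the 37 replication genes. The groups did not overlap for 4 of 8 epithelial, 2 of 8 macrophage, 0 of 5 fibroblast and 5 of 6 pericyte and smooth muscle markers (all genes 17.4%). The 8 epithelial markers all lay below 0, and their summed level was 3953 to 4922 CPM with the knockout label, against 6247 to 7048 CPM with the wild type label. Wild type replicate 1 was the highest library for 4 of the 8 (all genes 32.2%). Among the 8 is Cldn4, which starts within 400 kb of Rfc2 and stood 1.65 above the median of the other 5 libraries there, on the log2 scale. The 8 macrophage markers all lay above 0, at 711 to 1079 CPM with the knockout label, against 378 to 689 CPM with the wild type label. All 5 listed fibroblast markers and all 6 listed pericyte and smooth muscle markers lay above 0, but their summed levels overlap, at 3205 to 5728 CPM and 788 to 1856 CPM with the knockout label, against 1447 to 3780 CPM and 224 to 971 CPM with the wild type label. Of 4 adipocyte markers 1 was listed, Fabp4, a fatty acid binding protein, with 47.0, 78.1 and 26.6 CPM with the knockout label, against 2.71, 4.27 and 2.45 CPM with the wild type label. On the log2 scale it was higher by 4.0 (SE 0.48), with an adjusted p of 0.287 in edgeR and 2.86e-16 in DESeq2. The part these cells play in the replication gene levels was not tested. In RNA from whole cell populations, fewer cycling cells and less RNA per cell cannot be told apart.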

How the data were processed

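Messenger RNA of 6 libraries (3 per group) was sequenced as 150-base paired-end reads, per the labels' protocols. The authors deposited raw counts per gene symbol. Tools named in the submitters' processing notes are HISAT2, featureCounts and CASAVA 1.8, with the build GRCm38 (mm10). How strand and multiply aligned reads were handled, and with which annotation, is not given in these sources, so reads shared by gene copies or overlapping genes are uncertain. Each of the 10995 rows reaches a count of 133 in some library, so the table holds no gene that is low throughout.

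Counts were tested with edgeR 4.0.16 in R 4.3.3 (filterByExpr, which removed 0 genes, TMM scaling, robust quasi-likelihood F test, group as the only term, Benjamini-Hochberg adjustment over all genes). Log2 CPM used a prior count of 2. DESeq2 1.42.0, limma-voom (limma 3.58.1), other scalings and filters, a replicate block and each library left out were alternatives. Positions, exonic lengths and shared 31-base words came from GENCODE M21 (10917 symbols placed) with Python 3.11.15, and promoters from RefSeq. Values were printed for the genes of each role with the smallest p and the highest CPM, those with an unadjusted p under 0.05, and Mcm2 to Mcm7. Other genes named singly, the neighbour and window rules and the ratios were chosen after their values were seen. Members and lists were chosen with earlier results of these data known.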

Additional observations from a re-analysis of the deposited data

How the results depend on the processing

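In none of the settings run did any of the 37 replication genes, the other replication genes or Nr4a1 pass at an adjusted p of 0.05. The filter removed 0 genes, so the setting without it repeated the main fit and could not differ. Over 14 settings, that one included, 514 log2 fold changes of single genes were compared and 495 kept their direction. The other 19 belong to 13 genes. Scaling to library size gave 0.0018 for Orc2. With 1 library left out at a time, Mcm3 ran from -0.12 to 0.14, Pold2 from -0.17 to 0.057, Orc2 from -0.073 to 0.016, Pola1 from -0.11 to 0.15, Rpa2 from -0.064 to 0.096 and Pold1 from -0.076 to 0.11. Likewise, Rfc2 ran from -0.76 to 0.00499, Rfc3 from -0.44 to 0.025, Rrm1 from -0.23 to 0.082, Cdt1 from -0.15 to 0.017, Pole from -0.40 to 0.26, Rfc1 from -0.017 to 0.064 and E2f1 from -0.18 to 0.022. These ranges cross 0, and fewer libraries enter each fit. Without wild type replicate 1 the directions of Mcm3, Pold1, Rfc2, Rfc3, Rpa2 and Rrm1 differed from those with all libraries, and without wild type replicate 3 those of Orc2, Cdt1, Pole, Rfc1 and E2f1.

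The replicate numbers did not pair the libraries (correlations of same-numbered deviations -0.112, 0.348 and -0.255), and a replicate block left 1 of the 37 (Tk1) at an unadjusted p under 0.05 instead of 3. With 1 library left out, that count ran from 0 to 6, the median log2 fold change of the 37 from 0.029 to 0.15, and the genes without overlap from 8 to 16 (23.3% to 34.7% of all genes in the same settings). Over all genes, DESeq2 called 103 and edgeR 0, or 0 to 2 with 1 library left out. For these last differences the cause was not tested. Leaving out Mcm7, Rfc2, Rfc3 and Tk1 was chosen after seeing the data. With 3 libraries a group and standard errors of 0.068 to 0.36, small log2 fold changes were not detectable.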
